A study of Arabidopsis thaliana with 6 samples.

Results

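The genes described here encode proteins with a TIR domain, the fold that plant immune receptors share with Toll and interleukin-1 receptors. They were given as 60 named loci of Arabidopsis thaliana, of which 49 could be measured among 13355 genes with a probe set of their own. Among several probe sets of a gene, 1 was to be chosen by its mean log2 intensity over both groups. No member had more than 1, so that value decided nothing here.

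Most members are TNL receptors, which join a TIR domain to a nucleotide-binding domain and leucine-rich repeats. Others, the TN type, lack the repeats. On sensing a pathogen, TIR domains act as enzymes on NAD+, and their small products are read by dimers of EDS1 with PAD4 or SAG101. These dimers pass the signal to helper receptors of the ADR1 and NRG1 families, which leads to salicylic acid synthesis and often to cell death. TIR genes often lie in tandem arrays, and several act as pairs of neighbours.

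The data come from 6 arrays of GFP-positive cells sorted from protoplasted roots of Col-0 seedlings aged 5 days and grown on standard medium. The WOX5::GFP reporter, here WOX5, gave 3 arrays, and the pTMO5::GFP reporter, here TMO5, gave the other 3. WOX5 is a homeobox gene known from the quiescent centre, whose cells divide slowly and keep the surrounding root stem cells undifferentiated, and TMO5 a transcription factor gene of young xylem. The labels disagree with themselves on which cells these are, since the descriptions call WOX5 samples quiescent centre and the cell type tag calls them xylem, and the reverse for TMO5. All samples share 1 ecotype and no other treatment is given. Whether the 3 samples of a reporter came from separate cultures is not given, so the spread behind each p-value is that between arrays and may be technical. Each reporter was used on its own arrays, so reporter and handling of the arrays cannot be told apart.

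Values are intensities on a linear scale as deposited, and differences are of log2 intensity, WOX5 minus TMO5. A gene passed when its adjusted p from limma, over all 22746 probe sets tested, was under 0.05. Each array's background was the signal that 95% of its 27 unspiked bacterial probe sets stayed under. This level lay between 25.2 and 40.0 in WOX5 and between 24.8 and 28.7 in TMO5. The bioB spike, added to all samples as a control, had mean intensities of 32.5 to 35.2 on WOX5 arrays and of 376 to 397 on TMO5 arrays. Its part in the results was not tested. Of 8 quiescent centre markers, 5 were measured (AGL42, JKD, BRL1, ACR4 and BBM), all higher in WOX5, with summed intensities of 1838 to 3170 against 693 to 754 in TMO5. BBM made up most of each sum and was 2.11-fold higher in WOX5. ACR4 was 5.75-fold higher, and BRL1 at least 5.42-fold, with TMO5 within background. AGL42 and JKD were 14.7-fold and 11.9-fold higher, each with 1 TMO5 array above background, so these sizes are uncertain. Of 8 xylem and vascular markers only LHW and PHV were measured, with sums of 873 to 1213 in WOX5 and 1206 to 1238 in TMO5. PHV was 2.08-fold lower in WOX5 (limma adjusted p = 0.019), and LHW did not pass. WOX5 and TMO5 themselves were not measured by a probe set of their own. Markers of other cell types had 3 of 9 members measured (CO2, PEP and EXPA7), with sums of 306 to 612 in WOX5 and 206 to 332 in TMO5. CO2, known from the cortex, was 12.3-fold higher in WOX5 (limma adjusted p = 0.0026). PEP, also a cortex marker, and EXPA7, of root hair cells, were at log2 differences of -1.21 and -1.35, and neither passed (limma adjusted p = 0.056 and 0.11). No measured marker was listed at 0, and the part of other cell types in the results below was not tested. In sorted cells, fewer cells of a type and less RNA per cell cannot be told apart.

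Of the 49 measured members, 8 were higher and 2 lower in WOX5 cells, and 39 did not pass. These are 16.3% and 4.08% of the members measured, beside 12.7% of all genes that were higher and 9.43% that were lower. Of all genes 22.2% passed in either direction. Quantile normalization gave 5 members higher and 4 lower, beside 11.3% and 12.6% of all probe sets. Centring arrays on their medians likewise gave 5 and 4, beside 9.85% and 23.3%. In both settings the 4 lower include AT3G51560, which lay within background on all 6 arrays. Leaving out 1 array at a time, each of the 6 in turn, gave 4 to 6 members higher and 0 to 3 lower. Over all probe sets these fits called 9.24% to 12.5% higher and 3.19% to 8.79% lower, against 14.3% and 9.49% with all arrays. The 8 that rose were AT1G72850, AT1G72840, AT5G36930, AT4G19500, AT5G41550, AT5G17880 (CSA1), AT1G72940 and AT5G17680, and the 2 that fell were AT5G38340 and AT5G22690. Unadjusted p was under 0.05 for 18 members, beside 36.5% of all genes, so this count is near the background. The median log2 difference was 0.34 over the members and 0.02 over all genes. By sign alone 34 members were higher in WOX5, where 51.1% of all genes were. That median was 0.21 after quantile normalization and -0.04 after median centring, settings in which the median of all genes was -0.16 and -0.36 and in which 30 and 24 members had a positive sign. The members' median lay above that of all genes as deposited and after quantile normalization. Centring shifts all genes of an array alike, so it cannot change that gap and adds nothing to it. The sign of the members' median itself has no settled direction. Members were chosen with earlier results of these data known, so neither this gap nor the count of signs is a test of the members.

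**Figure D1:**
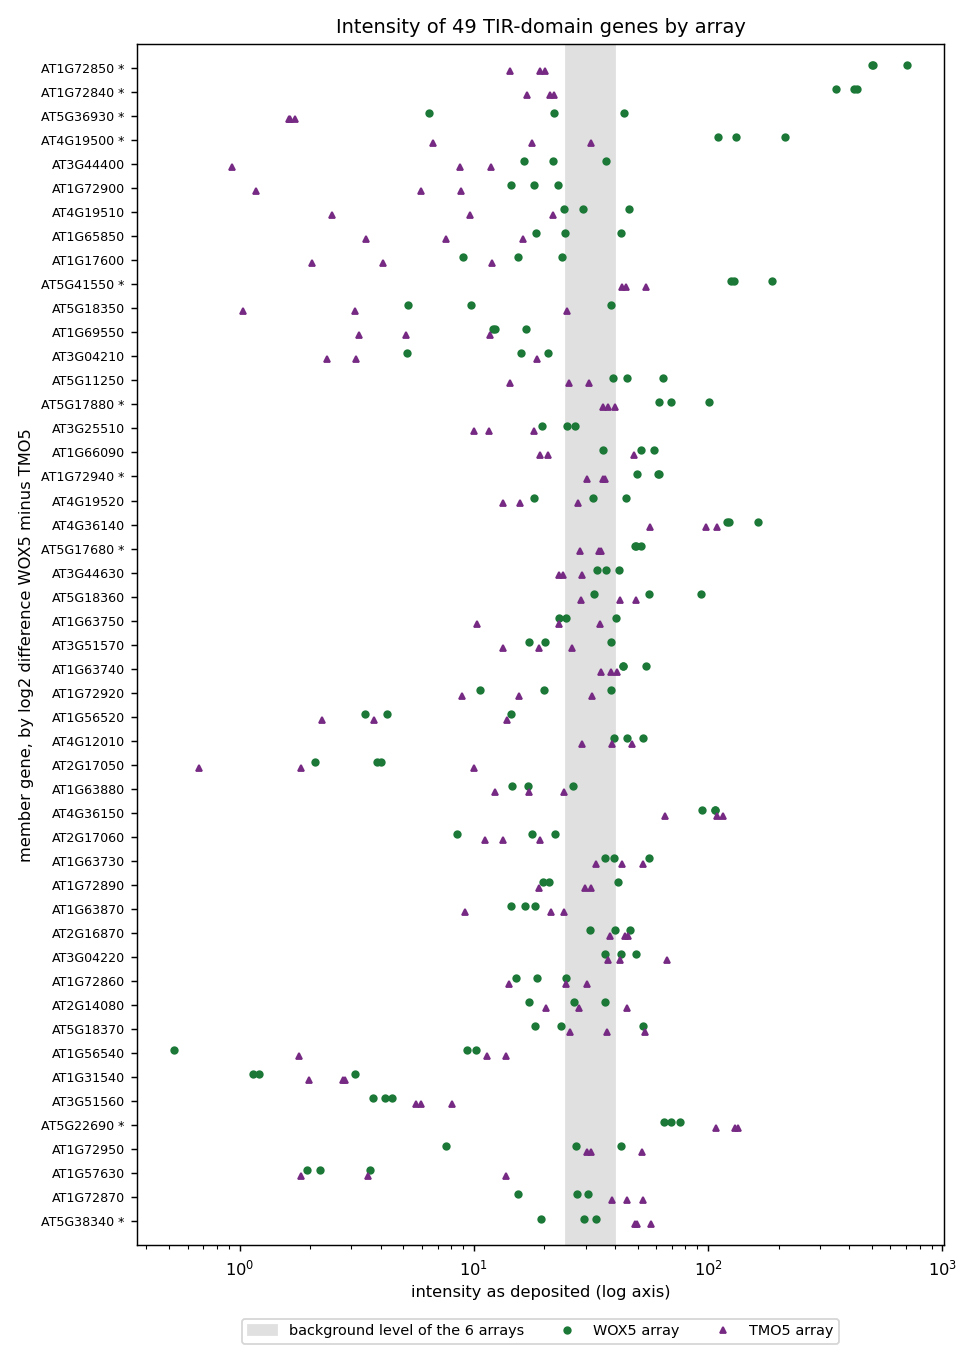
Intensity as deposited (log axis) of the 49 measured TIR-domain genes on 3 WOX5 arrays (circles) and 3 TMO5 arrays (triangles), ordered by log2 difference; a star marks genes with adjusted p under 0.05, and the grey band spans the background levels of the 6 arrays. Most members lie in or left of the band, and AT1G72850 and AT1G72840 stand apart at the top.

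Most TIR genes gave little signal in these cells. Only 9 members were above background on all 6 arrays, 18.4% of those measured against 51.9% of all genes, and 15 were within background on all 6, or 30.6% against 19.2%. Members above background on all 3 arrays of a group numbered 13 in WOX5 and 15 in TMO5. These are 26.5% and 30.6% of those measured, beside 56.4% and 58.6% of all genes. The replicate arrays were also far apart at such signals. Over the members, log2 values of TMO5 arrays differed from each other with an SD of 1.23 to 1.31, and those of WOX5 arrays with an SD of 0.60 to 1.08, lowest between replicates 1 and 3.

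The neighbouring genes AT1G72840 and AT1G72850 had the 2 largest log2 differences of the members measured. AT1G72840 encodes a TNL protein, and AT1G72850, the next gene on chromosome 1, a shorter TN protein. The intensity of AT1G72850 was 501, 707 and 505 in WOX5 and 20.02, 19.2 and 14.3 in TMO5. All WOX5 arrays were far above background and all TMO5 arrays within it. The difference was at least 20.6-fold (measured log2 difference 5.00 ± 0.23, SE; limma adjusted p = 0.00079). AT1G72840 gave 417, 430 and 352 in WOX5 and 21.2, 16.9 and 21.9 in TMO5. Again the groups were wide apart, with TMO5 within background, and the difference was at least 14.6-fold (measured log2 difference 4.33 ± 0.18; limma adjusted p = 0.00079). These bounds set the WOX5 mean against the background level of the TMO5 arrays and leave out the spread between arrays. Both calls held in all 14 alternative settings.

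These 2 genes open a run of 11 members on chromosome 1, from AT1G72840 to AT1G72950, of which 9 were measured. AT1G72940, of the TN type, also rose, with 61.2, 49.8 and 62.0 in WOX5 and 30.3, 36.4 and 35.7 in TMO5. All 6 values were above background and the groups did not overlap, at 1.69-fold (limma adjusted p = 0.029). The other 6 did not pass, and none of them repeated the size of the first pair. AT1G72860, the TNL gene that follows AT1G72850 among the members, gave 24.7, 18.6 and 15.2 in WOX5 and 14.1, 24.6 and 30.3 in TMO5. Its groups overlapped, and its log2 difference was -0.20 ± 0.35 (SE), with WOX5 within background. AT1G72870, of the TN type, gave 30.6, 15.5 and 27.7 against 45.2, 52.5 and 38.8. Here every TMO5 array was above every WOX5 array, with a log2 difference of -0.94 ± 0.31 (limma adjusted p = 0.079). AT1G72870 passed as lower in WOX5 after quantile normalization and after centring (limma adjusted p = 0.045 and 0.024). It also passed with dim probe sets filtered out (0.036) and with low values raised to the 20th percentile of their array (0.027). AT1G72900 gave 18.1, 14.4 and 22.9 in WOX5 and 5.93, 8.79 and 1.18 in TMO5, all within background. AT1G72890, AT1G72920 and AT1G72950 had overlapping groups, with log2 differences of -0.02 ± 0.37, 0.29 ± 0.65 and -0.83 ± 0.67. AT1G72910 and AT1G72930 (TIR) were not measured. AT1G72940 no longer passed when a TMO5 array or WOX5 replicate 1 or 3 was left out (adjusted p from 0.076 to 0.093), and under quantile normalization, centred arrays and an intensity trend with robust variances.

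**Figure D2:**
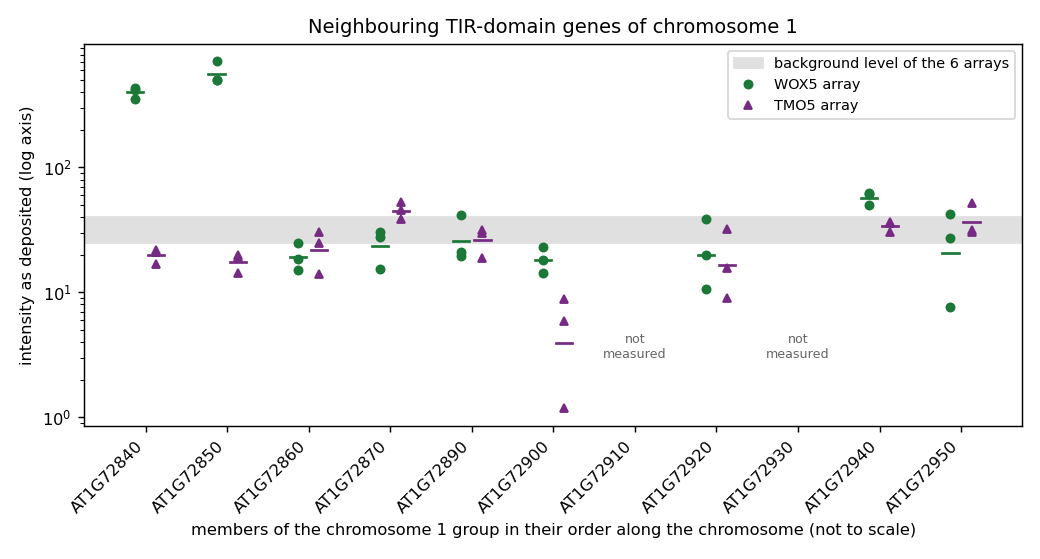
Intensity as deposited (log axis) of the chromosome 1 run from AT1G72840 to AT1G72950 in chromosomal order, for 3 WOX5 arrays (circles) and 3 TMO5 arrays (triangles), with short lines at the geometric means and the background levels as a grey band. The first 2 genes are at 352 to 707 in WOX5 and under 22 in TMO5, and the 7 others measured lie between 1.18 and 62.0 on all arrays.

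By order in the TAIR10.1 gene table, 38 of the 60 members fell into 12 groups of neighbours, with no more than 1 protein-coding gene between consecutive members. Of these groups, 10 had 2 or more measured genes. Of the 12 groups, 2 held a call. The chromosome 1 run had 3 among 9 measured members, and a group on chromosome 4 had 1 among 3. In the other groups, which had at most 3 measured members each, none passed. Of all genes 22.2% passed, so groups this small without a call are no result about them. Chromosome 1 holds 30 of the 60 listed members.

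The group on chromosome 4 has 3 neighbours and contains AT4G19500, known as RPP2A, which together with its neighbour RPP2B (AT4G19510) gives resistance to a downy mildew isolate. AT4G19500 gave 131, 213 and 110 in WOX5 and 31.7, 6.70 and 17.6 in TMO5. Every WOX5 array was above every TMO5 array, and 1 of the TMO5 arrays was above background. The difference was 9.38-fold (log2 3.23 ± 0.61, SE; limma adjusted p = 0.018), and between 6.16-fold and 13.4-fold when single arrays were left out. With the other TMO5 values within background, the size of the fold is uncertain. Its log2 difference was 2.75 with low values raised to the 20th percentile of their array. AT4G19500 lost its call without TMO5 replicate 3 or WOX5 replicates 1 or 2 (adjusted p from 0.053 to 0.054). Its fold was 7.75 without WOX5 replicate 2. AT4G19510 gave 29.2, 46.0 and 24.2 in WOX5 and 9.60, 21.8 and 2.49 in TMO5. The groups did not overlap, but only 1 of these 6 values was above background, and the log2 difference of 1.99 ± 0.81 did not pass (limma adjusted p = 0.13). AT4G19520, the third, had a log2 difference of 0.72 ± 0.44 with overlapping groups.

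AT5G41550, a TNL gene, rose in WOX5 cells with all 6 arrays above background. Its intensity was 129, 187 and 125 in WOX5 and 54.2, 42.7 and 44.8 in TMO5. The WOX5 arrays all lay above the TMO5 arrays, at 3.08-fold (log2 1.62 ± 0.22, SE; limma adjusted p = 0.0066). This call, like those of AT1G72840 and AT1G72850, held in all 14 alternative settings. AT5G17880 (CSA1), a TNL first known from a mutant with altered shade responses, and which acts with its neighbour CHS3, gave 61.6, 101 and 69.4 in WOX5 and 40.1, 35.5 and 37.5 in TMO5. The groups did not overlap and all 6 values were above background, at 2.01-fold (limma adjusted p = 0.029). AT5G17680, also a TNL gene, gave 51.4, 49.03 and 48.9 against 34.9, 28.5 and 34.2, the smallest rise that passed, at 1.53-fold (limma adjusted p = 0.037). CSA1 no longer passed when a TMO5 array or WOX5 replicate 3 was left out (adjusted p from 0.065 to 0.096), nor AT5G17680 when any array was (0.056 to 0.12). Both also lost it with quantile normalization and with centred arrays, and AT5G17680 with the intensity trend and robust variances.

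AT5G36930, a TNL gene, passed on values that were mostly within background. It gave 43.7, 6.46 and 22.0 in WOX5 and 1.72, 1.63 and 1.64 in TMO5. Only WOX5 replicate 1 was above its background level, so no fold is given. Its log2 difference of 3.47 (limma adjusted p = 0.020) fell to 0.58 (adjusted p = 0.21) when low values were raised to the 20th percentile of their array. It was 2.84 without WOX5 replicate 1 and 4.22 without WOX5 replicate 2, and it did not pass when a TMO5 array or WOX5 replicate 3 was left out (adjusted p from 0.062 to 0.067).

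Both members that fell are TNL genes of chromosome 5. AT5G22690 gave 64.7, 69.5 and 75.9 on WOX5 arrays and 134, 131 and 108 on TMO5 arrays. All 6 values were above background and the TMO5 arrays were all higher, so the gene was 1.77-fold lower in WOX5 (log2 -0.82 ± 0.16, SE; limma adjusted p = 0.019). AT5G38340 gave 33.3, 19.4 and 29.6 in WOX5, where 1 array was above background, and 48.8, 49.6 and 57.1 in TMO5, where all were. The groups did not overlap, and the fall was 1.93-fold (limma adjusted p = 0.042). AT5G22690 lost its call without TMO5 replicates 1 or 2 or WOX5 replicate 1 (adjusted p from 0.065 to 0.076), and AT5G38340 when a TMO5 array or WOX5 replicate 1 or 3 was left out (0.055 to 0.12).

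**Figure D3:**
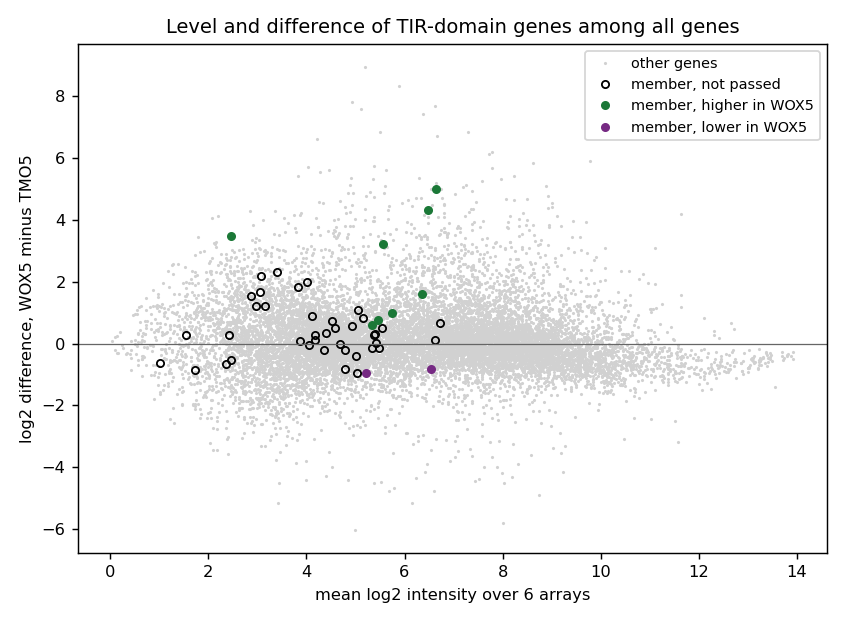
Mean log2 intensity over the 6 arrays against log2 difference (WOX5 minus TMO5) for each gene, with the other genes in grey and the TIR-domain genes as open circles (not passed), green (higher in WOX5) or purple (lower). Of the members that rose, AT5G36930 lies far to the left at low signal, and AT1G72850 and AT1G72840 lie highest, at log2 differences of 5.00 and 4.33.

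Among the 39 members that did not pass, 4 were above background on all 6 arrays. AT4G36140 and AT4G36150, neighbouring TNL genes of chromosome 4, were among the 5 members with the highest mean signal. AT4G36140 gave 122, 164 and 120 in WOX5 and 109, 56.6 and 97.9 in TMO5. Its WOX5 arrays were all higher, but the TMO5 arrays were spread widely, and the log2 difference of 0.66 ± 0.30 (SE) had an adjusted p of 0.17 (limma). AT4G36150 gave 93.9, 107 and 106 against 65.5, 116 and 109, with overlapping groups and a log2 difference of 0.12 ± 0.26. The 95% interval of that difference ran from -0.52 to 0.77, and its sign turned with the scaling, at -0.25 after quantile normalization and -0.26 after centring. The remaining 2 were AT1G63740 and AT2G16870, with log2 differences of 0.30 ± 0.17 and -0.14 ± 0.20.

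The groups did not overlap for 12 of the members that did not pass, 10 of them higher in WOX5, and for all 10 that passed. In all, 22 members had groups that did not overlap, 44.9% of those measured, beside 44.6% of all genes, a share near that background. AT5G11250 (BNT1), a TNL gene whose loss alters stress responses, gave 45.1, 39.1 and 63.9 in WOX5 and 31.0, 14.3 and 25.6 in TMO5. Its WOX5 arrays were all higher, and the log2 difference of 1.104 ± 0.36 (SE) had an adjusted p of 0.077 (limma), which was 0.034 when dim probe sets were filtered out and 0.029 with low values raised as above. AT1G17600 (SOC3), which pairs with the TN gene CHS1 next to it, lay within background on all 6 arrays. AT4G12010 (DSC1), a TNL gene that guards the transcription factor CAMTA3, had a log2 difference of 0.28 ± 0.24 with overlapping groups. BNT1, SOC3 and DSC1 were chosen for their known roles after their values were seen.

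The 11 members without a value include well-known receptors, namely AT1G56510 (WRR4), active against white rust, AT1G64070 (RLM1), active against a stem canker fungus, AT4G11170 (RMG1) and AT1G17610 (CHS1). AT1G63860, AT3G44670 and AT4G14370 had no named probe set either. AT1G27170 and AT1G27180 share a probe set, which gave 57.8, 56.7 and 44.5 in WOX5 and 46.2, 44.1 and 52.0 in TMO5. Its groups overlapped, all 6 values were above background, and the log2 difference was 0.15 ± 0.17 (SE).

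**Figure D4:**
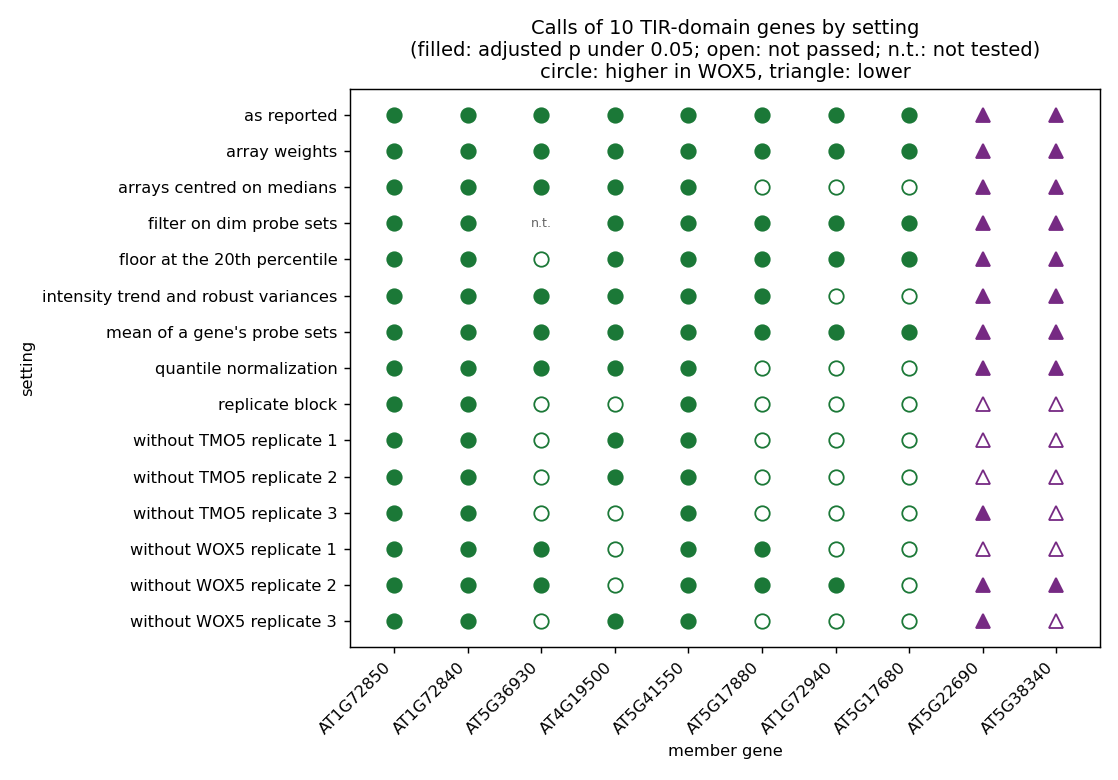
Calls of the 10 members that passed, as reported (top row) and under each alternative; circles mark genes higher and triangles genes lower in WOX5, filled where adjusted p was under 0.05, open where not, and n.t. where the probe set was not tested. AT1G72850, AT1G72840 and AT5G41550 are filled in every row.

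The proteins that act with TIR receptors were covered thinly. Of 29 listed signalling and regulatory genes 5 were measured, and 1 passed, too few to set beside the share of all genes. SGT1A, a co-chaperone that helps to fold these receptors, gave 152, 311 and 173 on WOX5 arrays and 101, 84.2 and 83.4 on TMO5 arrays. The groups did not overlap, with SGT1A 2.25-fold higher in WOX5 (limma adjusted p = 0.044). It did not pass when a TMO5 array or WOX5 replicate 1 or 3 was left out (adjusted p from 0.054 to 0.13), nor after quantile normalization or centring (0.096 and 0.094). SAG101, a partner of EDS1, gave 64.5, 60.8 and 64.4 in WOX5 and 25.0, 41.1 and 13.2 in TMO5. Its groups did not overlap, yet the log2 difference of 1.41 ± 0.42 (SE) did not pass (limma adjusted p = 0.063). AT3G48080, listed as a copy of EDS1, lay within background on all 6 arrays.

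Among listed genes of salicylic acid and immune output, 1 of 19 was measured. This was GRX480, a glutaredoxin gene induced by salicylic acid, with 770, 545 and 834 in WOX5 and 488, 254 and 236 in TMO5. The groups did not overlap and the log2 difference was 1.19 ± 0.35 (limma adjusted p = 0.058).

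Receptors outside the listed TIR genes gave a scale for comparison. Of 48 listed receptors and relatives of the coiled-coil type, 25 were measured, 3 were higher and 0 lower in WOX5, which is 12% and 0% beside the 12.7% and 9.43% of all genes. Their median log2 difference was -0.15. AT5G35450 had the largest rise among those that passed, with 77.6, 117 and 86.6 in WOX5 and 19.4, 27.4 and 24.4 in TMO5. Its groups did not overlap, at 3.93-fold (limma adjusted p = 0.0045), but only 1 of the TMO5 arrays was above background, so the size of the fold is uncertain. This call held in all 14 alternatives. AT5G45510 gave 716, 495 and 832 in WOX5 and 215, 220 and 280.4 in TMO5. It was above background throughout and 2.81-fold higher in WOX5 (limma adjusted p = 0.012). The third, AT3G14470, gave 66.8, 109 and 72.0 in WOX5 and 44.1, 41.9 and 45.7 in TMO5, all above background. It was 1.84-fold higher (limma adjusted p = 0.043), but it did not pass after quantile normalization or centring (adjusted p = 0.13 and 0.15), nor when a TMO5 array or WOX5 replicate 1 or 3 was left out (adjusted p from 0.060 to 0.13). Of 51 further TIR genes, listed from general knowledge after the members' values were seen, 28 were measured, and 1 was higher and 1 lower, or 3.57% each, with a median of 0.16. AT5G40920 gave 31.2, 26.2 and 22.3 in WOX5, within background, and 77.0, 86.7 and 68.1 in TMO5, so it was at least 2.32-fold lower in WOX5 (limma adjusted p = 0.0053). AT5G58120 gave 41.0, 39.1 and 45.3 in WOX5 and 18.5, 25.5 and 29.0 in TMO5, with 2 arrays of each group above background. It was 1.74-fold higher (limma adjusted p = 0.046), a call lost without any 1 of the 6 arrays (0.060 to 0.12), after quantile normalization (0.089), after centring (0.23) and with the intensity trend and robust variances (0.099). AT3G14470, AT5G40920 and AT5G58120 were named after their values were seen. Above background on all 6 arrays were 7.14% of these further TIR genes and 8% of the coiled-coil type, against 18.4% of the members. Within background on all 6 were 46.4% and 28%, against 30.6%. Differences between these lists were not tested, nor was the part of signal level in them.

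**Figure D5:**
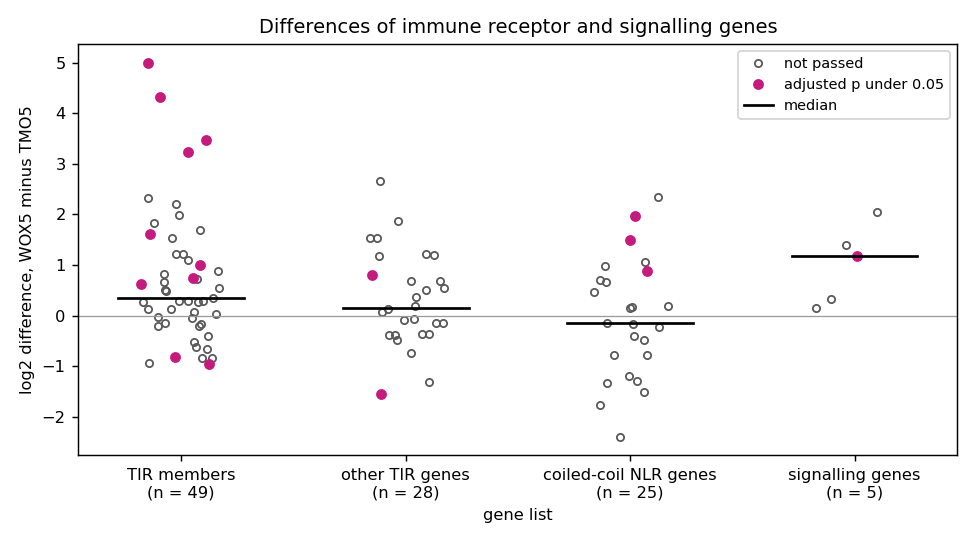
Log2 difference (WOX5 minus TMO5) of each measured gene in 4 lists, with filled points for adjusted p under 0.05 and lines at the medians; points are spread sideways for visibility only. The medians are 0.34 for the TIR members, 0.16 for the other TIR genes, -0.15 for the coiled-coil type and 1.17 for the 5 signalling genes.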

How the data were processed

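RNA from sorted cells was labelled with biotin for Affymetrix arrays, in 2 cycles for some arrays of the larger project and 1 for the rest, per the labels' protocols. The sources used here do not give the protocol of each array, the software or the genome build. Linear intensity values were deposited by the authors, with a mean of 250.0 on each array after trimming 2% at each end. Values under 1 were raised to 1, log2 was taken, and 22746 probe sets without controls were fitted by lmFit and eBayes of limma 3.58.1 (R 4.3.3), with Benjamini-Hochberg adjustment. Code was tested on simulated data with known changes, placed only in probe sets brighter on average than any member. Recovery of differences near background was therefore not tested. Genes came from the platform annotation, updated through the TAIR10.1 gene table, and probe sets of several genes named no gene. Arrays have no read depth, and their number limits precision. Members, lists and tests were chosen with earlier results of these data known. Members are given with all values where they passed without overlap (up to 15 each way) or have the 5 highest mean signals, as are genes that passed in the signalling and output lists and the 2 largest rises and falls that passed of the coiled-coil type. Neighbours of members may be named whatever their result. Alternatives were quantile normalization, centring on array medians, a filter (above background on at least 3 arrays), a floor at the 20th percentile, an intensity trend with robust variances, array weights, a replicate block, each array left out, and the mean of a gene's probe sets.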

Additional observations from a re-analysis of the deposited data

How the results depend on the processing

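Of the 10 members that passed, AT1G72840, AT1G72850 and AT5G41550 did so in all 14 alternatives, and no called member turned its direction in any. Quantile normalization and centred arrays each gave 5 members higher and 4 lower, where all probe sets gave 11.3% and 12.6%, and 9.85% and 23.3%. Both settings added AT1G72870 and AT3G51560 to the lower members, and in both AT1G72940, AT5G17680 and CSA1 lost their calls. AT3G51560 lay within background on all 6 arrays, at 4.48, 3.72 and 4.18 in WOX5 and 8.05, 5.68 and 5.96 in TMO5. Leaving out 1 array gave 4 to 6 higher and 0 to 3 lower. The signalling list had 0 to 2 higher when 1 array was left out, 0 with quantile normalization, centred arrays or a replicate block, and 2 with the filter, the floor or the intensity trend. With a replicate block, 4 members were higher and 0 lower, beside 7.56% and 2.42% of all probe sets. These were AT1G72840, AT1G72850, AT5G41550 and AT1G65850, the last of which had not passed without the block (limma adjusted p = 0.043 with it). All other members that had passed lost their calls there. Deviations of same-numbered arrays correlated at -0.02 to 0.01, so the values show no shared effect of the replicate number. With 3 arrays in each group they cannot tell whether the arrays were paired. AT4G36150, which did not pass, turned to -0.25 with quantile normalization and -0.26 with centred arrays, and ran from -0.14 without TMO5 replicate 1 to 0.27 without TMO5 replicate 2. The mean of a gene's probe sets equals the single probe set for every member. All probe sets called numbered 5411, and 2270 with a replicate block. Signal near background limits most members: 24 of 49 passed the filter on dim probe sets, and values below background have no reliable order.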
